A study of Mus musculus with 2 samples.

Results

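The cells described here came from the thymus of C57BL/6 mice, homozygous for a Bcl11b allele that carries a yellow fluorescent protein reporter (Bcl11byfp/yfp), and all were sorted as Lin- 7AAD- Kit+ CD25- Bcl11b- early thymic progenitors that lacked Flt3 on their surface. The Ly6d+ sort took the cells with Ly6d on their surface, and the Ly6d- sort took the cells that were negative for both Ly6d and heat-stable antigen (HSA, the product of Cd24a). The Ly6d+ sort was not gated on HSA, so a difference between the sorts cannot be told apart from one between HSA-expressing and HSA-negative cells. The control sort carried only the Lin- 7AAD- Kit+ gate, and the other sorts were Flt3+ Ly6d- HSA- and Flt3+ HSA+, both with the CD25- Bcl11b- gate. Each of the 5 sorts was stained with its own hashtag antibody, and all were pooled into 1 Chromium Single Cell 3' v3 cDNA library, so sort, hashtag and handling cannot be told apart and no test between sorts was possible. How many mice were used is not stated in the sources used here.

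Members were chosen by the authors' assignment of each barcode to a sort and, in addition, selected on measured values: a cell was kept with at least 3000 unique molecular identifiers (UMIs, counted transcript molecules) and with fewer than 5 of 14 granulocyte and monocyte genes detected. Those genes were Mpo, Elane, Prtn3, Ctsg, Cebpa, Cebpe, Csf1r, Csf3r, Lyz2, S100a8, S100a9, Ms4a3, Fcgr3 and Cd68. This kept 808 of 847 Ly6d+ cells and 1032 of 1205 Ly6d- cells, or 1840 of the 7948 assigned cells of the series. In the Ly6d- sort 128 cells that were deep enough carried 5 or more of the genes (11.0%), and in the Ly6d+ sort 18 cells did (2.18%). The cells left out held 23.2% of the UMIs of the deep Ly6d- cells and 2.90% of those of the deep Ly6d+ cells. Just inside the limit, the 74 Ly6d- and 65 Ly6d+ cells with 4 of the genes had a median of 10 UMIs of them, and just outside it, the 18 Ly6d- and 15 Ly6d+ cells with 5 had medians of 14 and 10. The levels of these genes in the cells kept follow from the limit: Mpo, which encodes myeloperoxidase, was at 349 counts per 1000000 UMIs (CPM) in Ly6d+ and 342 CPM in Ly6d- cells.

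Early thymic progenitors are the most immature cells of the T lineage in the thymus. They respond to Notch ligands, divide, lose the ability to make other blood cells, and turn on T-lineage regulators such as Tcf7 and Gata3 before they express CD25 and later commit with Bcl11b. Flt3 is a cytokine receptor of the youngest progenitors that is lost early in this sequence. Ly6d is a small protein held on the cell surface by a lipid anchor and is best known as a marker of early B-lineage progenitors. Genes for DNA replication are transcribed before and during S phase, and genes for chromosome condensation, the spindle and cytokinesis accumulate through G2 into mitosis. Many of the latter share a pair of promoter elements, the cell cycle genes homology region (CHR) and CCAAT boxes, which cell cycle repressor and activator complexes read.

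Genes of G2 and mitosis were higher in Ly6d+ cells, and the 120 bases before their RefSeq starts (GRCm38.p6) are shown for 5 of them. They were picked after their motifs were seen, to show both elements near the start. Capitals mark the CHR (TTTGAA, or TTCAAA on the other strand) and CCAAT boxes (CCAAT, or ATTGG on the other strand), and each line runs 5′ to 3′ in the direction of transcription.
Ube2c, chr2:164769809-164769928, plus strand: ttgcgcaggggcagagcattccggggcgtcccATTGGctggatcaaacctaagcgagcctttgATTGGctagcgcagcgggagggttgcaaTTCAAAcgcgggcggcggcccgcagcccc
Kif11, chr19:37376262-37376381, plus strand: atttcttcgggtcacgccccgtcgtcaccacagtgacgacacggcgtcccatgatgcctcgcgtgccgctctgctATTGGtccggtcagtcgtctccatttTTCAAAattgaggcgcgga
Top2a, chr11:99024190-99024309, minus strand: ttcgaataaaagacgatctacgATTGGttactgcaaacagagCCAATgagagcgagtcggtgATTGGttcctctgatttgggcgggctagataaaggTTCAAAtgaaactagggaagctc
Cdk1, chr10:69352913-69353032, minus strand: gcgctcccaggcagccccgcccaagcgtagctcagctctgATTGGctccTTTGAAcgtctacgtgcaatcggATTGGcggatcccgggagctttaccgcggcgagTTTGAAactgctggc
Prc1, chr7:80294356-80294475, plus strand: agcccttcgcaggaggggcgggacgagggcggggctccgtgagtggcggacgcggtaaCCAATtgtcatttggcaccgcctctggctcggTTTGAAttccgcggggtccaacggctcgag
The CHR nearest to the start began 29 bases before it in Ube2c, 19 in Kif11, 23 in Top2a, 15 in Cdk1 and 30 in Prc1. In the 200 bases before the start, a CHR was found in 8 of 21 promoters of the G2 and M phase list (38.1%, from 20 of its 24 genes in the table) against 12.5% of all 32851 promoters. A CCAAT box was found in 19 of the 21 (90.5%) against 29.3% of all, and all 8 with a CHR also had a CCAAT box, a pair that 3.69% of all promoters hold. Of 26 promoters of the S phase list (23 of its 30 genes), 2 held a CHR (7.69%), 17 a CCAAT box (65.4%) and 6 an E2F site (23.1%), searched as TTTCCCGC or TTTGGCGC on either strand, against 1.11% of all promoters. Of 20 promoters of the named genes that were at least 2-fold higher in Ly6d+ cells (17 of 27 genes, from a background of 0.510% of genes past that fold), 8 held a CHR and 11 a CCAAT box. In the 200 bases, Ccnb2 and Cdc20 of the G2 and M phase list held both elements but did not reach 1.5-fold. Nusap1 and Birc5 of that list held neither element but were past 2-fold. Whether motifs and ratios go together was not tested. A match is a description of the letters and not a measurement of binding.

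The cells kept had a median of 11434.5 UMIs and 3223 genes in the Ly6d+ sort and 9604.5 UMIs and 2879.5 genes in the Ly6d- sort. Mitochondrial transcripts took a median of 4.84% and 4.85% of a cell's UMIs. Levels are given as summed UMIs of all cells kept in a sort, scaled to CPM, from 10281074 Ly6d+ and 10719478 Ly6d- UMIs. Intervals are 95% intervals from the counts and cover counting error only, not differences between sorts or animals. Shares of cells are given after each cell was thinned at random to 3000 UMIs, since depth differed.

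The gate genes came out as follows. Ly6d, on chromosome 15 (74762056 to 74763620, mm10), was at 437 CPM (95% interval 424 to 450) in Ly6d+ and 14.1 CPM (11.9 to 16.5) in Ly6d- cells, a 31.0-fold ratio (26.4 to 36.7) that the gate fixed. Among 3000 UMIs, 46.5% of Ly6d+ cells and 3.49% of Ly6d- cells had a Ly6d UMI, and without thinning 67.5% and 9.59% did. The 3.49% of Ly6d- cells lay beside 5.56% in the sorted Flt3+ Ly6d- HSA- cells (95% interval 4.38 to 6.94) and 3.94% in the Flt3+ HSA+ cells, at median depths of 15010 and 20872 UMIs, so it was at or under the share in another sort gated against the protein. Cd24a was 1.84-fold higher in Ly6d+ cells (1.71 to 1.98), at 205 against 111 CPM. Kit, the receptor that both gates required, did not differ beyond counting error (113 and 113 CPM, ratio 1.0, 0.925 to 1.09). Flt3 was 2.09-fold lower in Ly6d+ cells (1.71 to 2.56), at 14.1 against 29.5 CPM, although both sorts were gated as Flt3-.

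Il2ra, which encodes CD25, was 2.50-fold higher in Ly6d+ cells (2.03 to 3.10), at 29.7 against 11.8 CPM, and at full depth 22.8% of Ly6d+ and 8.72% of Ly6d- cells had an Il2ra UMI. Both sorts lay far under the control, at 213 CPM, and above the Flt3+ sorts, at 0.604 and 2.17 CPM. Bcl11b had 36 UMIs in Ly6d+ and 4 in Ly6d- cells (3.50 and 0.373 CPM, against 201 CPM in the control), and 10 cells held 83.3% of those in the Ly6d+ sort.

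Of 5686 genes that reached 20 CPM and were detected in 5% or more of the cells of 1 sort, 29 were higher by 2-fold or more in Ly6d+ cells (0.510%) and 7 lower by 2-fold or more (0.123%). Of these, 27 of the 29 and 6 of the 7 carry gene names, and the others are known only by clone names. Members of the S phase or G2 and M phase lists made up 14 of the 29. After Ly6d, the highest ratio was that of Fgf3, a secreted fibroblast growth factor, at 23.0 CPM in Ly6d+ and 4.66 CPM in Ly6d- cells (4.92-fold, 3.61 to 6.82). In the Flt3+ sorts it was at 0.186 and 0.640 CPM, under both Flt3- sorts, and in the control at 60.3 CPM, above them. The 10 cells with most Fgf3 UMIs held 28.0% of them in the Ly6d+ and 44.0% in the Ly6d- sort.

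**Figure D1:**
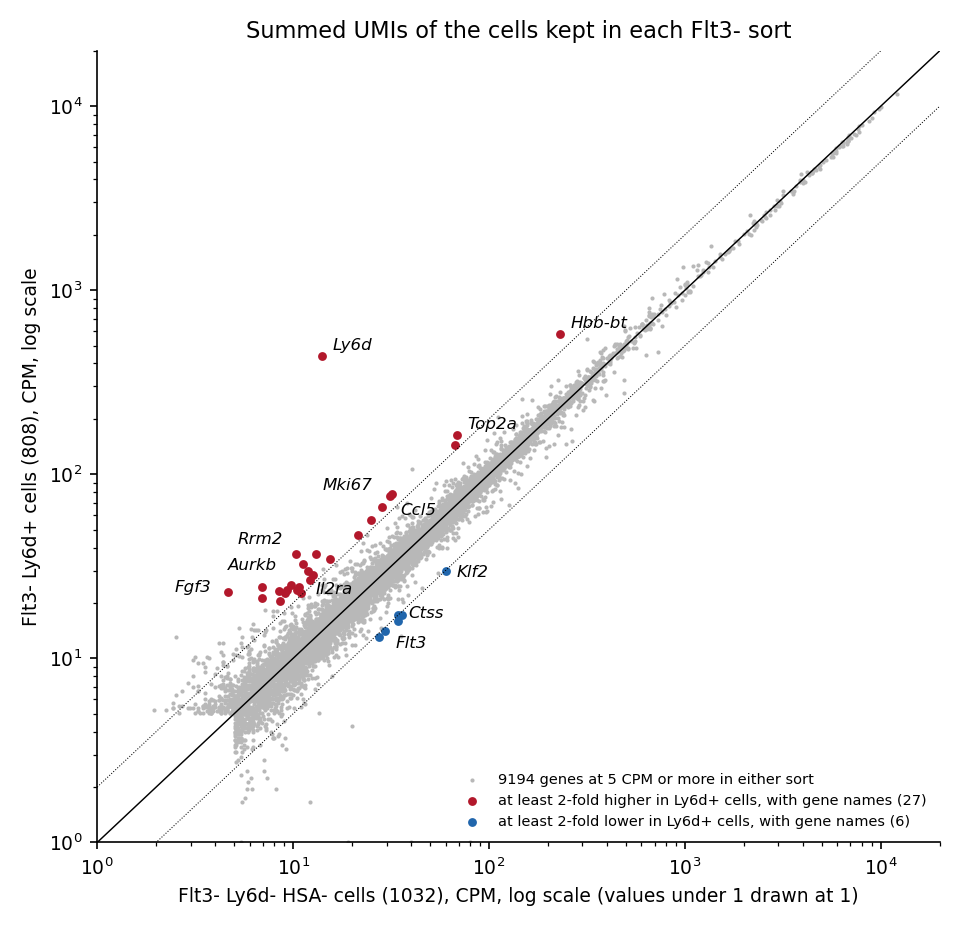
Level of each of 9194 genes in Ly6d- cells (x axis) and Ly6d+ cells (y axis), in CPM on log axes. The solid line marks equal levels and the dotted lines 2-fold differences. Ly6d stands apart at 437 against 14.1 CPM, the 27 named genes at least 2-fold higher in Ly6d+ cells are red, and the 6 at least 2-fold lower are blue.

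Genes of G2 and mitosis were higher in Ly6d+ cells as a group. All 24 genes of the list were measured at 5 CPM or more, 18 were at least 1.5-fold higher in Ly6d+ cells and none was at least 1.5-fold lower. Over all 9194 genes measured at that level, 2.65% were at least 1.5-fold higher and 1.82% at least 1.5-fold lower. The median log2 ratio of the list was 1.10, beside 0.01 over all genes measured. Aurkb, a kinase of the chromosomal passenger complex, was at 24.4 against 6.90 CPM (3.54-fold, 2.72 to 4.65), and Birc5, another subunit of that complex, at 56.2 against 25 CPM (2.25-fold). The spindle motor gene Kif11 was at 23.2 against 8.49 CPM (2.73-fold, 2.13 to 3.51). Nusap1, a microtubule-binding protein of the spindle, was at 32.6 against 11.3 CPM (2.89-fold, 2.34 to 3.58). The proliferation marker Mki67 was at 77.9 against 31.8 CPM (2.45-fold, 2.16 to 2.79), and Top2a, the topoisomerase that untangles sister chromatids, at 163 against 68.6 CPM (2.38-fold, 2.18 to 2.60).

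Cyclins and ubiquitin ligase genes of the list had unequal ratios. Ccna2, the cyclin of S phase and G2, was 2.40-fold higher in Ly6d+ cells (1.87 to 3.10) and its partner kinase Cdk1 2.19-fold (1.86 to 2.57). Among the mitotic cyclins, Ccnb1 was 1.78-fold higher (1.45 to 2.18), whereas Ccnb2 was at 46 and 44.1 CPM, a ratio of 1.04 (0.916 to 1.19) that did not pass counting error. Ube2c, the ubiquitin-conjugating enzyme of the anaphase-promoting complex, was 2.36-fold higher (2.06 to 2.71), and Cdc20, an activator of the same complex, 1.30-fold (1.13 to 1.49). Cenpe and Kif23, motors of the kinetochore and the midzone, had ratios of 1.04 and 1.12 with intervals that held 1. Pbk, a mitotic kinase, and Spc24, a subunit of the kinetochore's Ndc80 complex, are outside the list and were 3.07-fold and 2.79-fold higher. Casc5, a kinetochore scaffold (2.07-fold), Hist1h1b, a linker histone (2.14-fold), and Emid1 (2.19-fold) were also past 2-fold, and these 3 were chosen after their values were seen.

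Replication genes were higher too, by smaller ratios. Of the 29 S phase genes measured, 16 were at least 1.5-fold higher in Ly6d+ cells and none lower, against the same 2.65% and 1.82% of all genes, with a median log2 ratio of 0.61. Every one of the 29 had a ratio above 1. Rrm2, a subunit of ribonucleotide reductase, was at 36.7 against 10.4 CPM (3.54-fold, 2.86 to 4.42). Rrm1, the large subunit of that enzyme, was at 83.3 against 52.4 CPM (1.59-fold, 1.43 to 1.77). Tyms, the thymidylate synthase, was 1.95-fold higher (1.71 to 2.22). Tk1, the thymidine kinase of the salvage route, is outside the list and was 2.28-fold higher (1.82 to 2.86). Cdc45, which joins the replicative helicase when origins fire, was 2.18-fold higher, whereas the helicase subunits Mcm2 to Mcm7 lay between 1.27-fold (Mcm7) and 1.41-fold (Mcm2). Clspn, a mediator of the replication checkpoint, was 2.25-fold higher (1.83 to 2.78).

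In both Flt3- sorts these genes were below the other sorts. The summed level of the 24 G2 and M phase genes was 908 CPM in Ly6d+ and 483 CPM in Ly6d- cells, against 2055 and 3912 CPM in the Flt3+ Ly6d- HSA- and Flt3+ HSA+ sorts and 2707 CPM in the control under the same limits. The 30 S phase genes summed to 2211 and 1513 CPM, against 3150, 3610 and 3776 CPM. Ly6d+ cells thus lay between Ly6d- cells and each of the other sorts for both sums.

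**Figure D2:**
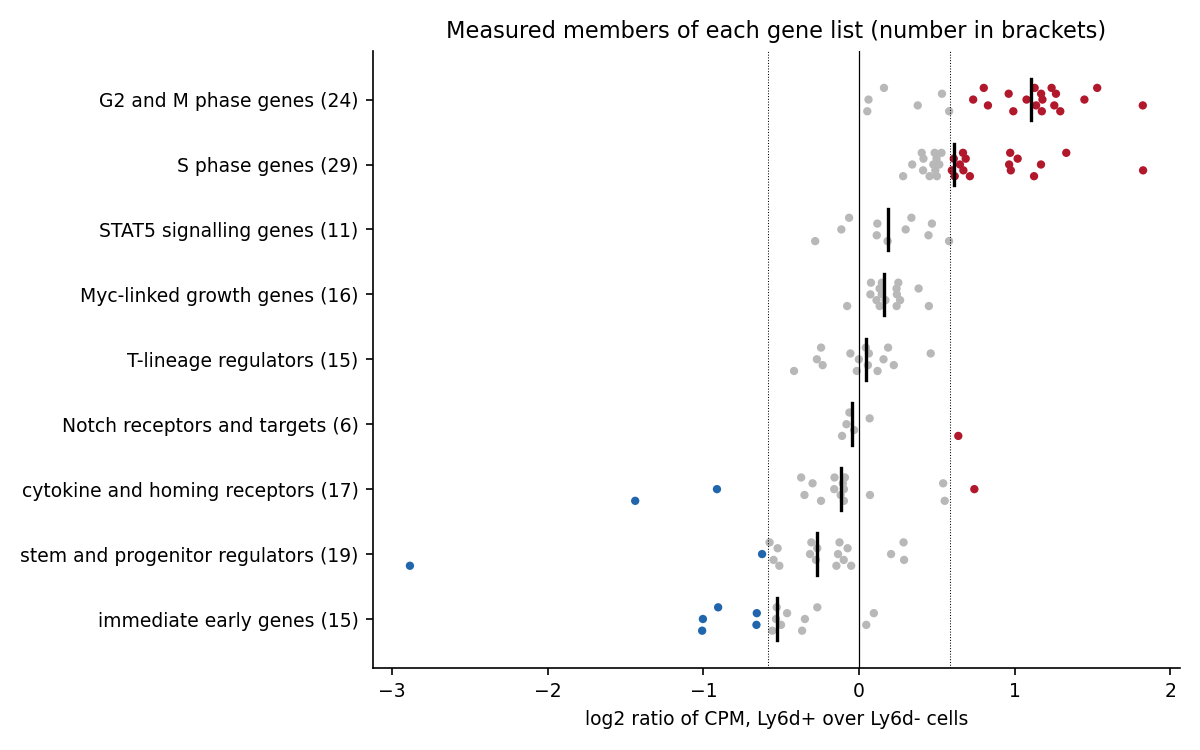
Log2 ratio of CPM, Ly6d+ over Ly6d- cells (x axis), for each measured member of 9 gene lists (rows, number of members in brackets). Red points are at least 1.5-fold higher, blue points at least 1.5-fold lower, dotted lines mark 1.5-fold and black bars the median. The 24 G2 and M phase genes have a median of 1.10 and the 15 immediate early genes one of -0.53.

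The Ly6d+ sort held a larger share of cells with many such UMIs. Among 3000 UMIs per cell, 72 of 808 Ly6d+ cells (8.91%, exact Clopper-Pearson interval 7.04 to 11.1) and 49 of 1032 Ly6d- cells (4.75%, 3.53 to 6.23) had at least 5 UMIs of the G2 and M phase list. With at least 10 the shares were 5.20% and 2.03%, and with at least 5 at full depth they were 22.0% and 14.5%. Cells with at least 5 had a mean of 15.3 such UMIs in the Ly6d+ sort and 13.0 in the Ly6d- sort, a smaller gap than that between the shares. For the S phase list, 38.7% of Ly6d+ (35.4 to 42.2) and 26.6% of Ly6d- cells (23.9 to 29.4) had at least 5 UMIs. Most cells of either sort had no UMI of the G2 and M phase list at this depth, 56.6% of Ly6d+ and 63.9% of Ly6d- cells. These counts are of transcripts and do not place a cell in a phase.

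**Figure D3:**
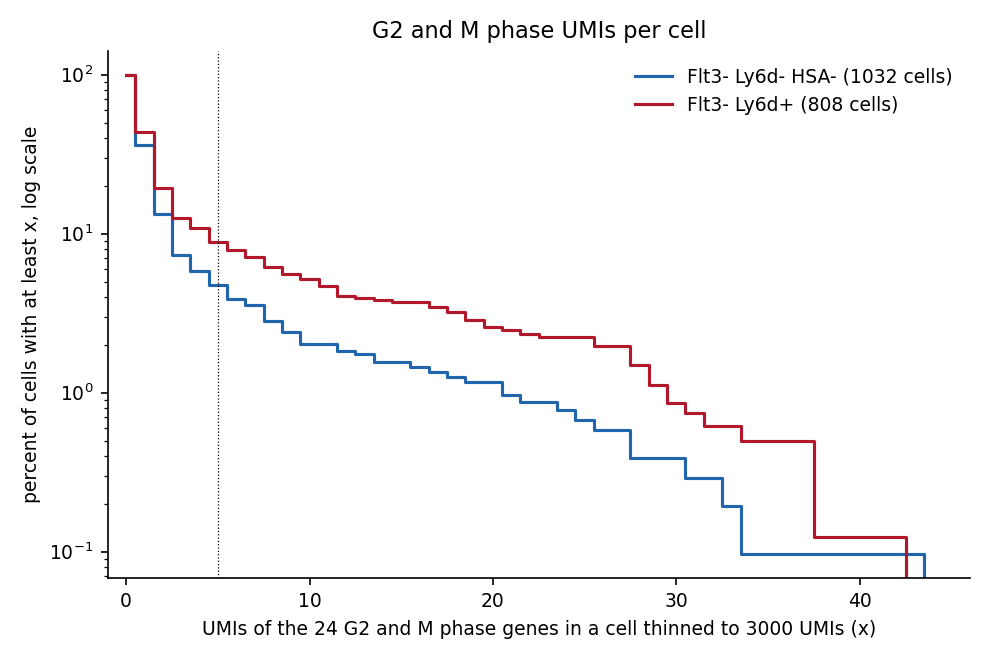
Percent of cells (y axis, log scale) with at least the given number of UMIs of the 24 G2 and M phase genes (x axis) after thinning to 3000 UMIs, for the 808 Ly6d+ (red) and 1032 Ly6d- cells (blue). At 5 UMIs, the dotted line, the curves stand at 8.91% and 4.75%.

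Most D cyclins, their kinases and inhibitors differed by less than 1.5-fold, while Ccne2 and Cdc6 of the S phase list were at least 1.5-fold higher. Of 11 measured D cyclins, their kinases and inhibitors, 1 was at least 1.5-fold higher and none lower, beside 2.65% and 1.82% of all genes. That 1 was Cdkn1a, the p21 inhibitor of cyclin-dependent kinases, at 23.5 against 9.33 CPM (2.52-fold, 1.99 to 3.22). Cdkn1b, the p27 inhibitor, was at 65.6 against 88.8 CPM, 1.35-fold lower (1.23 to 1.5), and Ccnd2, a D cyclin, was at 174 against 162 CPM.

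The T-lineage regulators measured at 5 CPM or more differed by less than 1.5-fold between the sorts under the limits used. None of the 15 measured was at least 1.5-fold higher or lower, and the median log2 ratio was 0.04. Tcf7, the Notch-induced regulator that starts the T-cell program, was at 214 against 155 CPM (1.38-fold, 1.29 to 1.47), and 44.8% of Ly6d+ against 33.4% of Ly6d- cells had a Tcf7 UMI at 3000 UMIs. Both levels were well above the 33.9 and 45 CPM of the Flt3+ sorts, and the Ly6d+ level was near the 224 CPM of the control. Tcf7 passed 1.5-fold with no limit on the granulocyte markers (1.74-fold) and in cells with a Cd24a UMI at 3000 (1.57-fold, 1.40 to 1.77). In cells with an Il2ra UMI its interval held 1 (ratio 1.08, 0.936 to 1.26). Gata3, which acts with Tcf7, was at 36.7 and 35.3 CPM (ratio 1.04, 0.899 to 1.20). In cells with an Il2ra UMI Gata3 was lower in Ly6d+ cells (ratio 0.695, 0.488 to 0.997). Over all genes measured, 2.65% were at least 1.5-fold higher and 1.82% lower. Of 10 measured T-cell receptor and signalling components, 1 was at least 1.5-fold higher and none lower. That 1 was Cd247, the zeta chain, at 17 against 10.2 CPM (1.67-fold, 1.31 to 2.15). It was 1.47-fold with the limit set at fewer than 3 of the granulocyte markers. Of 6 measured Notch receptors and targets, Hes5 alone passed 1.5-fold, at 8.56 against 5.50 CPM (1.56-fold, 1.11 to 2.20), while Notch1 (167 and 171 CPM) and Hes1 (169 and 176 CPM) had intervals that held a ratio of 1.

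Of 17 cytokine and homing receptors measured, 1 was at least 1.5-fold higher and 2 at least 1.5-fold lower in Ly6d+ cells, beside 2.65% higher and 1.82% lower of all genes tested. Il7r, the receptor chain for interleukin-7, was at 29.8 against 17.8 CPM (1.67-fold, 1.39 to 2.01), with 83.4 CPM in the control. It was under 1.5-fold with equal weight for every cell (1.32-fold) and with every cell thinned to 3000 UMIs (1.47-fold). Ccr9, a chemokine receptor used in thymus homing, was at 2.24 against 6.06 CPM (2.71-fold lower, 1.66 to 4.57), and the receptor subunit Csf2rb was at 5.35 against 10.1 CPM (1.88-fold lower). Genes of the STAT5 pathway downstream of interleukin-7 gave no member past 1.5-fold among 11 measured. Their median log2 ratio was 0.18, and the target Cish had the highest value at 1.49-fold (1.15 to 1.94).

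Of 19 stem and progenitor regulators measured, set as Ly6d+ against Ly6d- cells, none was at least 1.5-fold higher (2.65% of all genes) and 2 were at least 1.5-fold lower (1.82% of all genes). The median log2 ratio was -0.27. Lmo2, a partner of the Tal1 and Lyl1 factors in stem cells, was at 62.7 against 96.6 CPM (1.54-fold lower, 1.39 to 1.70). Its ratio was 0.681 at equal weight per cell and 0.706 in cells without a G2 and M phase UMI, both under 1.5-fold. In cells with an Il2ra UMI the Lmo2 interval held 1 (ratio 0.886, 0.655 to 1.21). Gata2 was 7.39-fold lower (4.44 to 13.1) at 1.65 against 12.2 CPM, and 10 cells held 50.4% of its Ly6d- UMIs. Cd34, a surface marker of progenitors, was at 269 against 394 CPM (1.46-fold lower, 1.39 to 1.54), with 53.1% against 66.5% of cells having a UMI at 3000. Its order over the sorts ran from 500 CPM in the Flt3+ Ly6d- HSA- cells down to 184 CPM in the control.

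Immediate early genes are induced within minutes of stimulation and also during tissue dissociation. Of 15 measured, 5 passed 1.5-fold toward lower levels in the Ly6d+ sort (1.82% of all genes did) and none at least 1.5-fold higher, and the median log2 ratio was -0.53. Jun, a subunit of the AP-1 factor, was at 462 against 729 CPM (1.58-fold lower, 1.52 to 1.64), and Egr1 at 17.2 against 34.5 CPM (2.0-fold, 1.67 to 2.41). Klf2, a factor of quiescence and of trafficking in lymphocytes, was at 30.0 against 60.3 CPM (2.01-fold lower, 1.75 to 2.31), and the nuclear receptor Nr4a1 at 29.2 against 54.7 CPM (1.87-fold). Fos was at 163 against 224 CPM (1.38-fold lower), and Fosb at 29.5 and 28.5 CPM and Ier3 at 170 and 159 CPM (ratio 1.07, 0.998 to 1.14) had intervals that held 1. In cells without a G2 and M phase UMI Ier3 was higher in Ly6d+ cells (1.19-fold, 1.09 to 1.30). Fosb was 1.55-fold higher (1.13 to 2.14) in cells with a Cd24a UMI at 3000, and had a ratio of 0.869 (0.707 to 1.06) in cells without one. With no limit on the granulocyte markers Jun had a ratio of 0.727 and Nr4a1 of 0.670, and without cells that carried 3 markers of another type Jun had a ratio of 0.857, all short of 1.5-fold. At least 20 UMIs of the list among 3000 were found in 10.8% of Ly6d- cells (8.93 to 12.8) and 5.45% of Ly6d+ cells (3.98 to 7.24), against 3.35% and 1.70% in the Flt3+ sorts.

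Outside the regulator lists, 3 more genes lay 2-fold or more below the Ly6d- level in Ly6d+ cells. Ctss, the lysosomal protease cathepsin S of antigen-presenting cells, was at 16 against 34.3 CPM (2.14-fold, 1.78 to 2.59). Cnrip1, which binds a cannabinoid receptor, was at 17.1 against 35.8 CPM (2.09-fold), and the adhesion receptor Adgrl4 at 13.1 against 27.4 CPM (2.09-fold). All 3 were highest in the Flt3+ Ly6d- HSA- sort, at 61.5, 37.6 and 56.5 CPM, and lay near the Ly6d+ level in the control, at 14.9, 14.8 and 12.6 CPM. Ctss belongs to a list of other granulocyte and monocyte genes, of which 11 were measured and 5 had a ratio above 1. Ccl9 was at least 1.5-fold higher and Lbp and Ctss at least 1.5-fold lower, beside 2.65% and 1.82% of all genes. That list summed to 2935 CPM in Ly6d+ and 2519 CPM in Ly6d- cells.

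**Figure D4:**
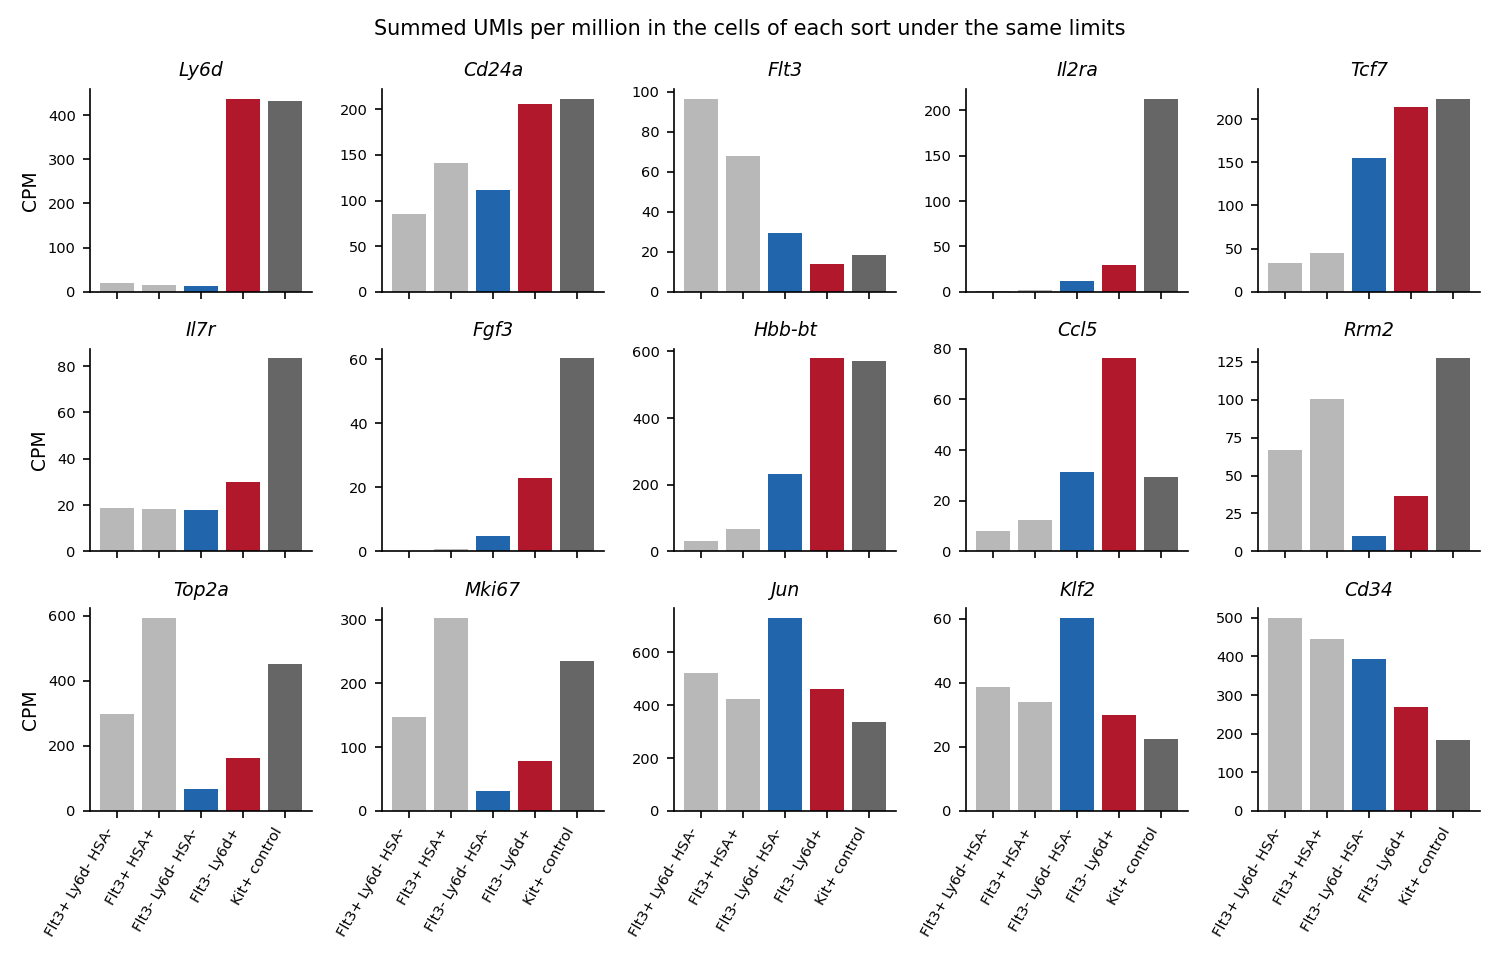
Level in CPM (y axis, from 0) of 15 genes in the cells of the 5 sorts under the same limits, 1 sort each and hence no error bars. Ly6d- cells are blue and Ly6d+ cells red. Ly6d, Tcf7 and Hbb-bt are near the control level in Ly6d+ cells, and Top2a, Mki67 and Rrm2 are lowest in the Ly6d- sort.

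Transcripts known from other cell types were also among the differences. The beta-globin gene Hbb-bt was at 579 against 231 CPM in Ly6d+ cells (2.50-fold, 2.39 to 2.63), with 571 CPM in the control and 31.8 and 68.1 CPM in the Flt3+ sorts. A UMI of it was found in 18.7% of Ly6d+ cells (16.1 to 21.6) and 10.9% of Ly6d- cells (9.02 to 12.9) at 3000 UMIs, and 10 cells held 29.2% and 39.6% of its UMIs. The alpha-globin genes Hba-a1 and Hba-a2 and the heme synthesis gene Alas2 had 0 UMIs in both sorts. Hbb-bt has a near-identical neighbour, and how reads that match both copies were counted was not examined. Of the other erythroid and megakaryocyte markers measured, Itga2b was 2.37-fold higher (1.73 to 3.27) and Car2 1.75-fold lower (1.65 to 1.86).

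Ccl5, a chemokine of T and NK cells, was at 76.3 against 31.3 CPM (2.43-fold, 2.14 to 2.77), above the control at 29.5 CPM and the Flt3+ sorts at 8.18 and 12.5 CPM. Of the other NK and innate lymphoid markers, Nfil3 was 2.17-fold higher and Gzmb and Klrd1 were 2.0-fold and 1.53-fold lower, among 10 measured. For this list and those below, the shares of all genes past 1.5-fold were 2.65% higher and 1.82% lower. The defining factors Eomes and Tbx21 and the receptor gene Ncr1 had 0 UMIs in Ly6d+ cells and 8, 5 and 5 in Ly6d- cells. The whole list of 20 summed to 1422 CPM in Ly6d+ and 1388 CPM in Ly6d- cells. Cma1, a mast cell chymase, had 0 UMIs in Ly6d+ cells and 205 in Ly6d- cells, at least 65.5-fold lower against a floor of 3 counts in the sort, with all of the Ly6d- UMIs in at most 10 cells. The 10 mast cell and basophil markers summed to 227 and 251 CPM. Maf was 1.80-fold lower (1.52 to 2.14), the only gamma delta T cell marker of 3 measured past 1.5-fold, and had a ratio of 0.722 with no limit on the granulocyte markers. Of B cell markers only Cd79b was measured at 5 CPM, at 48.6 and 51.8 CPM. Dendritic cell markers gave Itgax as the only member past 1.5-fold among 7 (2.06-fold higher, at 8.27 against 4.01 CPM). The part of such cells in the gene counts was not tested beyond a count without cells that carried 3 markers of another type, which left 83 Ly6d+ and 211 Ly6d- cells and gave 49 genes higher and 43 lower, among them 15 and 3 of the first counts.

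The differences were followed in subsets of cells. These differ in number of cells, so their counts of genes past a fold cannot be compared with each other or with the counts above. The share of all genes past 1.5-fold within a subset is not given. Among cells with no Cd24a UMI at 3000 (447 Ly6d+ and 760 Ly6d-), 36 of 5718 genes were at least 2-fold higher and 7 lower. These included 28 of the 29 and 6 of the 7. Absence of a Cd24a UMI is not absence of HSA, and Cd24a at full depth was still 1.89-fold higher in those Ly6d+ cells. Among cells with no Il2ra UMI at full depth (624 and 942), 32 of 5699 genes were higher and 5 lower, including 27 and 3. The other cells of these splits were fewer and shared fewer of the 29 higher genes. In cells with a Cd24a UMI (361 and 272), 27 of 5797 genes were higher and 14 lower, including 15 and 4. There 1.5-fold was passed by 18 of 24 G2 and M phase and 21 of 29 S phase genes. In cells with an Il2ra UMI (184 and 90), 52 of 5936 genes were higher and 26 lower, including 11 and 5. The cycle lists gave 13 of 24 and 6 of 29 in these cells. There Ube2c had a ratio of 0.875 (0.609 to 1.27) and Cdk1 of 1.11 (0.715 to 1.77), while Mki67 was 2.94-fold (1.79 to 5.12) and Fgf3 4.09-fold (2.06 to 9.25) higher. Among the cells with no G2 and M phase UMI at 3000 (457 and 659), 7 of 5691 genes were higher and 7 lower. These included 6 and 3 of the first counts, which follows in part from the choice of cells. In that subset Mki67, Aurkb and Kif11 had ratios of 0.864, 0.949 and 0.987, at under 5 CPM in both sorts. Fgf3 (5.25-fold), Hbb-bt (3.16-fold), Il2ra (2.94-fold) and Ccl5 (2.25-fold) were still higher in Ly6d+ cells there, and Egr1 was 2.13-fold lower. In cells with at least 5 G2 and M phase UMIs (72 and 49), 112 of 5975 genes were higher and 106 lower, including 6 and 5. The cycle lists gave 6 of 24 and 18 of 30 genes at least 1.5-fold higher. Among these cells the intervals of Fgf3 (1.43, 0.669 to 3.33) and Egr1 (0.949, 0.515 to 1.80) held 1. Hbb-bt (3.96-fold, 2.96 to 5.41) and Il2ra (3.49-fold, 1.03 to 18.4) were higher in Ly6d+ cells, and Ccl5 was at 10.3 against 0 CPM.

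**Figure D5:**
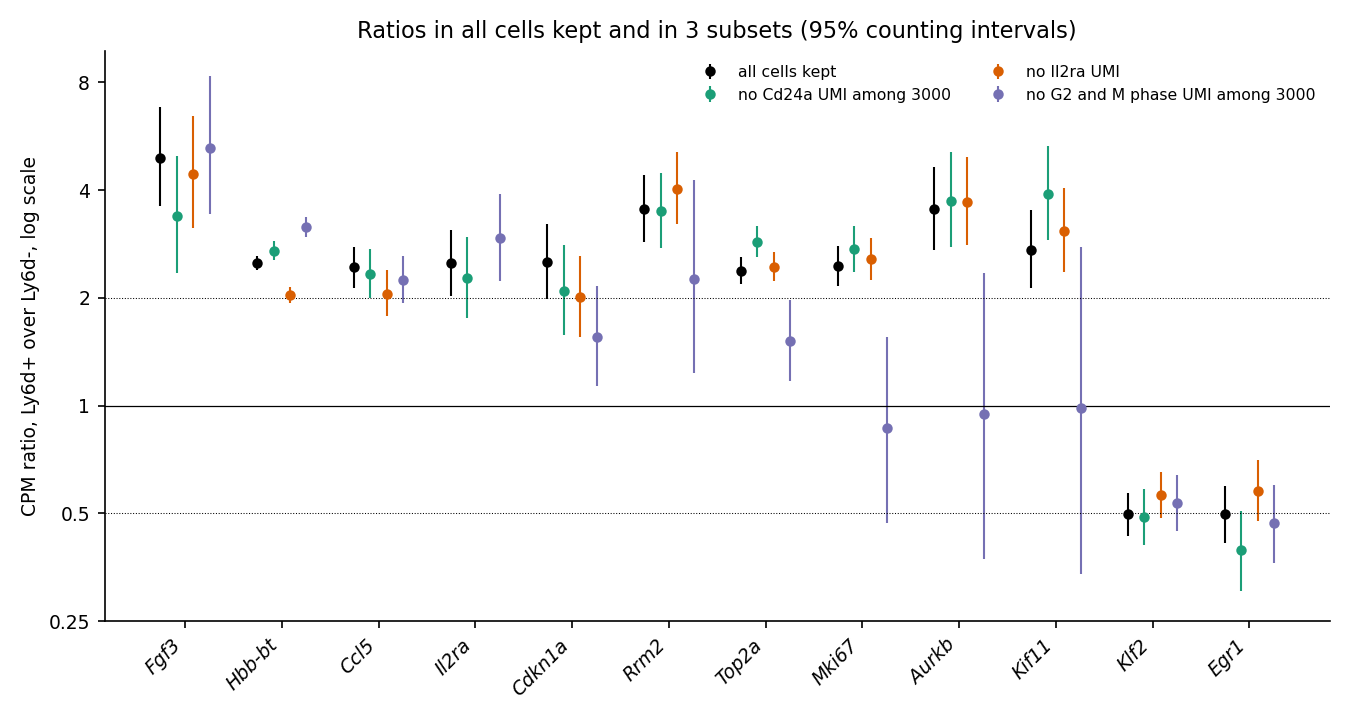
CPM ratio of Ly6d+ over Ly6d- cells (y axis, log scale) for 12 genes in all cells kept (black) and in cells with no Cd24a UMI (green), no Il2ra UMI (orange, not drawn for Il2ra) or no G2 and M phase UMI (purple). Points are ratios and bars 95% counting intervals. Without G2 and M phase UMIs, Mki67, Aurkb and Kif11 stand at 0.864, 0.949 and 0.987, and Fgf3 at 5.25 and Hbb-bt at 3.16.

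Within the Ly6d+ sort, the 376 cells with a Ly6d UMI at 3000 were set beside the 432 without one, as a description of cells of 1 sort. Il7r was at 42.1 against 18.4 CPM (2.28-fold, 1.79 to 2.93), Fgf3 at 32.2 against 14.5 CPM (2.21-fold, 1.68 to 2.94) and Il2ra at 35.2 against 24.6 CPM (1.43-fold, 1.13 to 1.81). Of the 24 G2 and M phase genes, 23 had a ratio under 1 in cells with a Ly6d UMI, 18 of them with an interval wholly under 1, and the median ratio was 0.692. The lowest were Hmmr at 14.4 against 32 CPM (a ratio of 0.451), Ube2c at 42.5 against 89.1 CPM (0.478) and Nusap1 at 20.8 against 43.4 CPM (0.478). Mki67 had a ratio of 0.668 (0.577 to 0.772), Top2a of 0.766 (0.694 to 0.845) and Aurkb of 0.812 (0.626 to 1.05), and the highest was Bub1 at 1.16 (0.769 to 1.75). The share of cells with at least 5 G2 and M phase UMIs was 8.24% (5.67 to 11.5) with and 9.49% (6.90 to 12.7) without a Ly6d UMI, within each other's intervals.

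The limit on granulocyte genes bears on these counts. With no such limit, 14 genes were at least 2-fold higher and 35 lower in Ly6d+ cells, and 1.5-fold higher levels were reached by 0 S phase genes and 13 of the G2 and M phase list. The cells it removed had median UMI counts of 25632 in the Ly6d- and 14228 in the Ly6d+ sort. With the 14 genes read after thinning to 3000 UMIs, so that depth did not enter, 22 genes were higher, 9 lower and 9 S phase genes at least 1.5-fold higher.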

How the data were processed

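The deposited matrix holds counts, UMIs per gene and barcode for 27998 genes and 8293 barcodes, made by the authors with Cell Ranger 3.0 and mm10, per the submitters' processing notes. The hashtag table, also deposited as counts, holds the same 8293 barcodes. The authors' deposited assignment of barcodes to sorts was used. The sources used here state neither its rule nor a filter on cells, and 345 unassigned barcodes were left out. No doublet caller was run and no clusters were made.

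UMIs were summed over cells and scaled to CPM (Python 3.11.15, SciPy 1.17.1). Ratio intervals come from the binomial split of the UMIs, level intervals are exact Poisson, and shares are Clopper-Pearson. Genes were named when among the 20 largest ratios in a direction past the rule of 2-fold, 20 CPM and 5% of cells, or when a gate gene or a member of the lists. A few genes that met this rule are not reported here. Members and lists were chosen with earlier results of these data known. Scripts were tested on simulated data. The 19 alternatives cover scaling (edgeR 4.0.16, DESeq2 1.42.0 factors), depth, limits, subsets and floors. Promoters come from RefSeq (GRCm38.p6) and gene positions from GENCODE M21.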

Additional observations from a re-analysis of the deposited data

How the results depend on the processing

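No paired analysis was possible because each sort was made 1 time and no replicate sorts exist to block on, and no sort could be left out. The reported counts are 29 genes at least 2-fold higher and 7 lower, and 18 G2 and M phase and 16 S phase genes at least 1.5-fold higher. With equal weight for every cell 18 genes were higher. With every cell thinned to 3000 UMIs 22 were higher and 6 lower, among them 13 of the 29 and 4 of the 7. With totals that left out mitochondrial and ribosomal protein genes 11 were lower, and 4 were lower with the deepest 5% of cells left out and also with at least 6000 UMIs per cell. With no limit on the granulocyte genes 14 were higher, 35 lower and 0 S phase genes higher, and Tk1 turned to a ratio of 0.928. With the limit read after thinning 9 S phase genes were higher. In cells without a G2 and M phase UMI 7 genes, 3 G2 and M phase genes and 3 S phase genes were higher, and Aurkb (0.949), Kif11 (0.987), Mki67 (0.864), Ube2c (0.653) and Birc5 (0.308) turned, which the choice of those cells by that list in part fixes. Without cells that carried 3 markers of another type 49 were higher, 43 lower and 10 S phase genes higher, over 83 and 211 cells. A floor of 50 CPM gave 9 higher and 1 lower, and no floor gave 78 and 29. Beyond the choice of cells and of floor stated, the cause of each was not tested. TMM and DESeq2 factors, which differed from 1 by under 1%, left both 2-fold counts as they were, as did the hashtag purity limit, which removed no cell. Of 815 ratios over 43 genes and 19 settings, 685 stayed within the 95% counting interval of the reported ratio, 124 lay outside it on the same side of 1 and 6 changed direction. The 685 include ratios that could not move, since the hashtag limit removed no cell and the floors change only which genes are counted. TMM and DESeq2 factors shift all ratios by the same small amount. The tally is therefore not a measure of how stable the ratios are.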

Other observations

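Growth and metabolic genes were close between the sorts. None of 16 Myc-linked growth genes was at least 1.5-fold higher or lower, with a median log2 ratio of 0.16. Myc was at 90.7 and 95.7 CPM (ratio 0.948, 0.867 to 1.04), and the nucleolar gene Nolc1 at 95.8 against 73.5 CPM (1.30-fold, 1.19 to 1.43). None of 14 glycolysis genes passed 1.5-fold. Ldha, which turns pyruvate into lactate, was at 348 against 289 CPM (1.20-fold, 1.15 to 1.27). Of 13 interferon and MHC class I genes, Ifi27l2a alone passed 1.5-fold, toward lower levels, as 1.82% of all genes did. It was at 24.1 against 45.5 CPM (1.89-fold lower, 1.62 to 2.21), and B2m was at 1206 and 1212 CPM.

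Of 5 Ly6 family genes measured, 3 were at least 1.5-fold higher in Ly6d+ cells, Ly6d itself, Ly6k and Lynx1, beside 2.65% of all genes tested. Lynx1 was at 5.06 against 2.61 CPM (1.94-fold, 1.20 to 3.18), from 52 and 28 UMIs. Ly6e was at 1338 against 976 CPM (1.37-fold, 1.34 to 1.41), Ly6k at 11.0 against 7.18 CPM (1.53-fold, 1.13 to 2.07), and Ly6a, the stem cell antigen Sca-1, at 112 and 112 CPM (0.996, 0.918 to 1.08). The integrin gene Itga4 was at 326 against 224 CPM (1.45-fold, 1.38 to 1.53), with 353 CPM in the control and 90.3 and 112 CPM in the Flt3+ sorts.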
